A study of Mus musculus with 38 samples.

Results

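Mouse embryonic stem cells kept for 8 days with both inhibitors of the 2i medium were compared with cells kept in serum, by RNA sequencing. The comparison was taken from the labels: 3 libraries of the 2i/L group and 3 of the S/L group, 6 of 38 samples in the series. The series holds 14 RNA libraries in 5 groups, and its 24 whole-genome bisulfite samples were not analysed here. All cells were of 1 line, E14 (129/Ola), which is XY, grown in normoxia on gelatin with no feeder layer. Every culture was first plated in S/L, which is DMEM with 15% fetal bovine serum and leukaemia inhibitory factor (LIF), and was washed and given its test medium on the following day. 2i/L is N2B27, a medium without serum made with the N-2 and B-27 supplements (the latter lacking vitamin A), with LIF, 1 µM of the MEK inhibitor PD03259010 and 3 µM of the GSK3 inhibitor CHIR99021. Serum, basal medium and both inhibitors therefore change together between these groups, and their parts in a difference cannot be told apart from the 6 libraries alone. MEKi/L and GSK3i/L share N2B27 and LIF with 2i/L and hold 1 inhibitor each, and their 3 libraries each at 8 days are given beside the result where they bear on it. LIF was present in every group.

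MEK is the kinase that activates ERK, which carries the signal of fibroblast growth factors into the nucleus and moves mouse embryonic stem cells towards differentiation. GSK3 marks beta-catenin for destruction, so its inhibition stabilises beta-catenin and relieves the repression that TCF factors exert on their targets. Blocking both in the presence of LIF holds the cells in the naive state of the early epiblast, with low DNA methylation, whereas cells in serum form a mixed population. RNA was measured in bulk, so fewer cells of a type and less RNA per cell cannot be told apart.

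Values are reads per 1000000 reads (RPM), which can be compared between libraries for 1 gene but not between genes of different length. The log2 difference is the mean log2 level in 2i/L minus that in S/L, with its standard error (SE) and a Benjamini-Hochberg adjusted p from limma over all tested genes. A gene is said to have risen or fallen where the adjusted p is under 0.05. Genes were tested where 3 or more libraries reached 0.5 RPM, and a gene that did so only through the group where it is high had to differ. Where such genes are counted below they are no support for a direction, and besides those stated with their lists they were Fgf5, Dusp2, Tfec, Tex101 and CT954323.2 (through S/L) and Cdx2 (through 2i/L). Of 14980 tested genes, 63.6% changed (39.1% rose in 2i/L and 24.4% fell), and 74.6% had values that did not overlap between the groups. The counts of list members in this fit, given below, are read against these shares. At least 2-fold, 3543 genes rose and 2770 fell, or 23.7% and 18.5% of those tested. Higher genes made up 56.1% of these 2-fold calls, and 40.8% after each library was centred on its median. The median log2 difference of all tested genes was 0.28, and -0.03 after that centring.

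A property of the libraries moved with the medium. The score of each library is its mean log2 level over 40 long transcripts minus that over 40 short ones. It lay between -2.99 and -2.58 in S/L and between 0.25 and 0.37 in 2i/L. In MEKi/L it was 0.54 in replicate 1 and -1.97 and -1.56 in the others, and in GSK3i/L 0.24 in replicate 1 and -1.73 and -2.72 in the others. Of the cytosolic ribosomal protein genes, which are short, 61 of 85 fell and 4 rose (median log2 difference -1.02), and with the score as a covariate 11 passed in either direction and the median was 0.16. With that covariate 1778 genes rose at least 2-fold and 1356 fell, and the median over all genes was 0.13. Within the 2 groups compared the score and the medium cannot be told apart, and the slope of the covariate comes mostly from the spread inside MEKi/L and GSK3i/L. For each group of genes the count with this covariate is therefore given. Over all tested genes 18% rose and 11.4% fell with the covariate, and 27.5% rose and 32% fell after median centring. Counts of list members in those 2 fits are read against these shares. A gene named below kept its call with the covariate unless the text says otherwise.

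**Figure D1:**
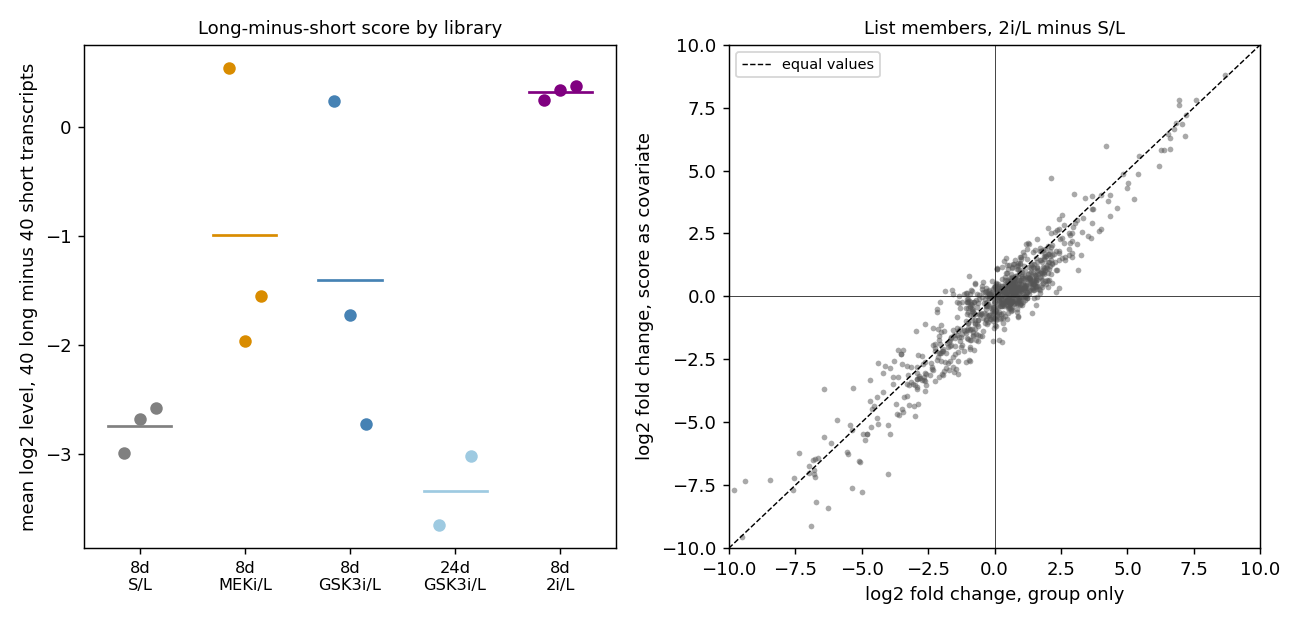
Left, the score of each RNA library (mean log2 level of 40 long minus 40 short transcripts) by group, with points for libraries and bars for group means. Right, log2 difference between 2i/L and S/L for the genes of all lists in the fit with group only (horizontal) and with the score as a covariate (vertical), where the dashed line marks equal values. The 3 libraries of S/L lie below -2.5 and those of 2i/L above 0.2, and genes far from 0 keep their sign while many nearer to 0 do not.

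Depth and markers of the libraries were as follows. Scaling totals of 2i/L ran from 12650000 to 15120000 reads, and the approximate totals of S/L from 8120000 to 9740000. A floor of 3 reads in a library corresponds to 0.221 RPM in 2i/L and 0.329 RPM in S/L on average. Pearson correlations of log2 values were 0.984 to 0.987 within 2i/L, 0.976 to 0.983 within S/L and 0.832 to 0.864 between them. The defining markers of embryonic stem cells summed to 4330 to 4794 RPM in 2i/L and 6574 to 7188 RPM in S/L, with reads for 8 of 8 in both. Primitive endoderm markers summed to 8.15 to 11.2 RPM in 2i/L and 34.2 to 43.6 RPM in S/L, with reads for 11 of 11 in both. Mesoderm and primitive streak markers summed to 27.7 to 31.7 RPM in 2i/L and 4.37 to 7.06 RPM in S/L (Mesp1 and Foxf1 at 0 in 2i/L, Foxf1 and Lhx1 at 0 in S/L). Gsc alone, with values given below, made up a large part of this sum in 2i/L, and 5 of these 10 markers were tested. Neural markers summed to 86.9 to 113.8 RPM in 2i/L and 115.3 to 157.5 RPM in S/L (Neurog2 at 0 in both, Pax3 and Dcx also in S/L). Trophoblast markers summed to 116.4 to 121.6 RPM in 2i/L and 72.9 to 119.6 RPM in S/L (Tpbpa and Plac1 at 0 in both, Elf5 also in S/L), and fibroblast markers to 212.5 to 366.6 RPM and 98.9 to 159.2 RPM (Lum at 0 in both, Dcn and Twist2 in 2i/L, Postn and Prrx1 in S/L). The part of these cell types in the results below was not tested.

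The steepest differences, taken by rank among genes that reach 5 RPM, were of many kinds. The rises included Bhmt2, Dmgdh and Bhmt (methionine metabolism), Osm (the LIF-family cytokine oncostatin M), Smad9 (a BMP effector), Gsc (a homeobox factor of the primitive streak), Vax2 (a homeobox factor of the eye), Plagl1 (an imprinted zinc finger gene), Mal, Cttnbp2 and Slit2 (an axon guidance ligand). Gsc had 14.9, 16.7 and 18.6 RPM in 2i/L and 0.154, 0.215 and 0.155 RPM in S/L, a log2 difference of 6.59 ± 0.32 (SE, limma adjusted p = 7.6e-09). Vax2 had 22.1, 15.7 and 12.4 RPM in 2i/L and 0.241, 0.142 and 0.155 RPM in S/L, a log2 difference of 6.54 ± 0.27 (SE, limma adjusted p = 2.5e-09). No S/L value of either gene came near those of 2i/L, where Vax2 varied more than Gsc. All S/L values of both lay below the floor of 3 reads in a library, so the size of these folds is uncertain. Kcnd3, a potassium channel gene, was at 5.56, 6.96 and 8.60 RPM in 2i/L, at least 21-fold higher than in S/L, where no read was found. Nkx1-2, a homeobox factor of the posterior neural axis, was at 33.9, 38.6 and 33.3 RPM in 2i/L with 1 read in all of S/L. S1pr1 and Ccbe1 also belonged to the 15 and had 1 and 3 reads in S/L.

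Among the 15 falls, Plac8 had the largest fitted value. Plac8 had 0.152, 0 and 0.264 RPM in 2i/L and 166, 116 and 107 RPM in S/L, a log2 difference of -9.80 ± 0.59 (SE, limma adjusted p = 3.2e-08). Coch (cochlin, a secreted protein) had 0.152, 0.079 and 0.132 RPM in 2i/L and 16.2, 12.1 and 10.3 RPM in S/L, a log2 difference of -6.76 ± 0.57 (SE, limma adjusted p = 5.4e-07), and Aass (the enzyme that opens lysine breakdown) is given with amino acid metabolism. In each of these genes every S/L library lay above every 2i/L library. All 2i/L values of Coch lay below the floor of 3 reads in a library, so the size of its fold is uncertain. Spink3 (a serine protease inhibitor), Zscan4d (a gene of the 2-cell stage), Enpp2 (autotaxin), Cthrc1 and CT954323.2 had 0 reads in 2i/L. They were at least 216-, 109-, 40-, 34- and 36-fold lower there, in that order. Myo1f, Sema3e, Car4, Slc39a8, Gbp2, Vrtn and Gbp1 complete the list with 2 or 3 reads in 2i/L, against S/L means from 8.27 RPM for Vrtn to 54.0 RPM for Myo1f.

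The MEK-ERK pathway was split by role: its feedback inhibitors mostly fell in 2i/L while the kinases of the cascade mostly rose. Spry4, a Sprouty protein that ERK induces and that damps receptor signalling, had 2.13, 0.474 and 0.397 RPM in 2i/L and 77.9, 56.6 and 110.0 RPM in S/L. These groups stood far apart, and replicate 3 of 2i/L was the lowest. The log2 difference was -6.74 ± 0.66 (SE, limma adjusted p = 2.1e-06). Dusp6, the phosphatase that removes the activating phosphates of ERK in the cytoplasm, had 10.1, 7.90 and 8.07 RPM in 2i/L and 50.6, 42.5 and 70.5 RPM in S/L, a log2 difference of -2.63 ± 0.27 (SE, limma adjusted p = 3.0e-06). Dusp5, a nuclear ERK phosphatase, had 0.915, 1.19 and 1.06 RPM in 2i/L and 11.1, 8.42 and 11.4 RPM in S/L, a log2 difference of -3.29 ± 0.29 (SE, limma adjusted p = 8.7e-07). For both phosphatases all 3 serum libraries were above the 3 of 2i/L. Of 19 tested feedback genes 12 fell and 6 rose (median log2 difference -1.33), and with the score as a covariate 11 fell and 1 rose. Spry2 also fell (-0.73), with 58.8, 66.9 and 67.2 RPM in 2i/L and 124, 87.3 and 112 RPM in S/L, as did Dusp2 (-3.53), which rests on 4 reads in 2i/L and did not pass with the covariate. The rises were led by Dusp16 (1.34) and Dusp7 (1.15), and neither passed with the covariate.

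Of 19 tested members of the cascade 11 rose and 2 fell, with a median log2 difference of 0.67. With the covariate 3 rose, Sos1 and Map2k1 among them, and 0 fell. Map2k1, which encodes MEK1, the target of the inhibitor, had 234, 239 and 209 RPM in 2i/L and 66.2, 92.9 and 86.6 RPM in S/L, a log2 difference of 1.49 ± 0.24 (SE, limma adjusted p = 1.5e-04). Sos1, the exchange factor that loads RAS, had 74.8, 80.2 and 80.7 RPM in 2i/L and 19.8, 23.8 and 20.8 RPM in S/L, a log2 difference of 1.88 ± 0.24 (SE, limma adjusted p = 1.8e-05). Both genes were higher in every 2i/L library. Mapk3, which encodes ERK1, did not pass, with 86.0, 101 and 88.0 RPM in 2i/L and 54.0, 85.3 and 87.0 RPM in S/L. Hras (-1.01) and Araf (-0.72) fell, and neither passed with the covariate.

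Ligands and receptors went both ways, with 5 of 13 tested members higher and 5 lower (median 0.15, and 3 higher and 4 lower with a median of -0.40 with the covariate). Fgf10 had 23.1, 22.3 and 24.2 RPM in 2i/L and 0.763, 0.745 and 0.711 RPM in S/L, a log2 difference of 4.97 ± 0.26 (SE, limma adjusted p = 1.1e-08). Fgf4, the main FGF of embryonic stem cells, had 329, 348 and 416 RPM in 2i/L and 101, 154 and 143 RPM in S/L, a log2 difference of 1.47 ± 0.23 (SE, limma adjusted p = 1.0e-04). For each of these ligands the lowest 2i/L library was above the highest of S/L. Erbb3, a receptor of the EGF family, rose by 1.78. On the lower side, Fgf15 had 0.686, 0.474 and 0.992 RPM in 2i/L and 8.98, 10.1 and 12.4 RPM in S/L, a log2 difference of -3.93 ± 0.49 (SE, limma adjusted p = 1.7e-05), and Fgf17 fell from 34.0, 21.3 and 32.2 RPM to 7.70, 7.90 and 9.12 RPM (-1.80). Fgf5, a marker of the primed epiblast, was at 1.98, 0.467 and 3.04 RPM in S/L and at least 8-fold lower in 2i/L, which had 0 reads.

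Transcription factors that ERK induces were lower in part. Egr1, an immediate early gene, had 0.61, 0.237 and 0.331 RPM in 2i/L and 7.45, 10.96 and 19.1 RPM in S/L, a log2 difference of -5.00 ± 0.73 (SE, limma adjusted p = 6.1e-05). Myc had 5.72, 3.00 and 2.12 RPM in 2i/L and 45.2, 28.9 and 48.8 RPM in S/L, a log2 difference of -3.59 ± 0.56 (SE, limma adjusted p = 1.1e-04). In both, serum libraries were higher without overlap. Etv4, an ETS factor downstream of FGF, fell by 2.10 on the log2 scale, with 21.1, 21.3 and 14.6 RPM in 2i/L and 83.5, 76.2 and 82.1 RPM in S/L, and Fosl2 fell by 3.16. Ets2 (1.91) and Mycl (1.78) rose. Fos did not pass, with 0.762, 1.26 and 1.85 RPM in 2i/L and 1.19, 1.50 and 1.19 RPM in S/L. Of 25 tested factors 9 fell and 5 rose (median -0.32), and with the covariate 9 fell and 2 rose.

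The single-inhibitor media place these levels. Spry4 was at 1.21, 0.576 and 0.19 RPM in MEKi/L and 91.6, 35.3 and 49.1 RPM in GSK3i/L, and Dusp6 at 20.3, 16.4 and 12.2 RPM and 73.2, 41.7 and 40.9 RPM. Between 2i/L and MEKi/L, whose media differ by the GSK3 inhibitor, Spry4 differed by 0.54 ± 0.66 (adjusted p = 0.58) and Dusp6 by -0.89 ± 0.27 (adjusted p = 0.043). Between 2i/L and GSK3i/L, whose media differ by the MEK inhibitor, the differences were -6.20 ± 0.66 (adjusted p = 2.0e-05) and -2.53 ± 0.27 (adjusted p = 1.8e-05). Over all tested genes, 12.9% differed between 2i/L and MEKi/L (6.81% higher in 2i/L and 6.11% lower) and 27.8% between 2i/L and GSK3i/L (19.8% higher and 8.02% lower). The score also differs between these libraries, as given above, and the GSK3i/L columns were matched to a shared distribution while those of 2i/L were not. With the score as a covariate the shares were 13.4% and 21.4%, and with quantile normalization 10.6% and 21.3%. Of the differences from MEKi/L and GSK3i/L given here and below, the calls were the same with the covariate and with quantile normalization, except for T.

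**Figure D2:**
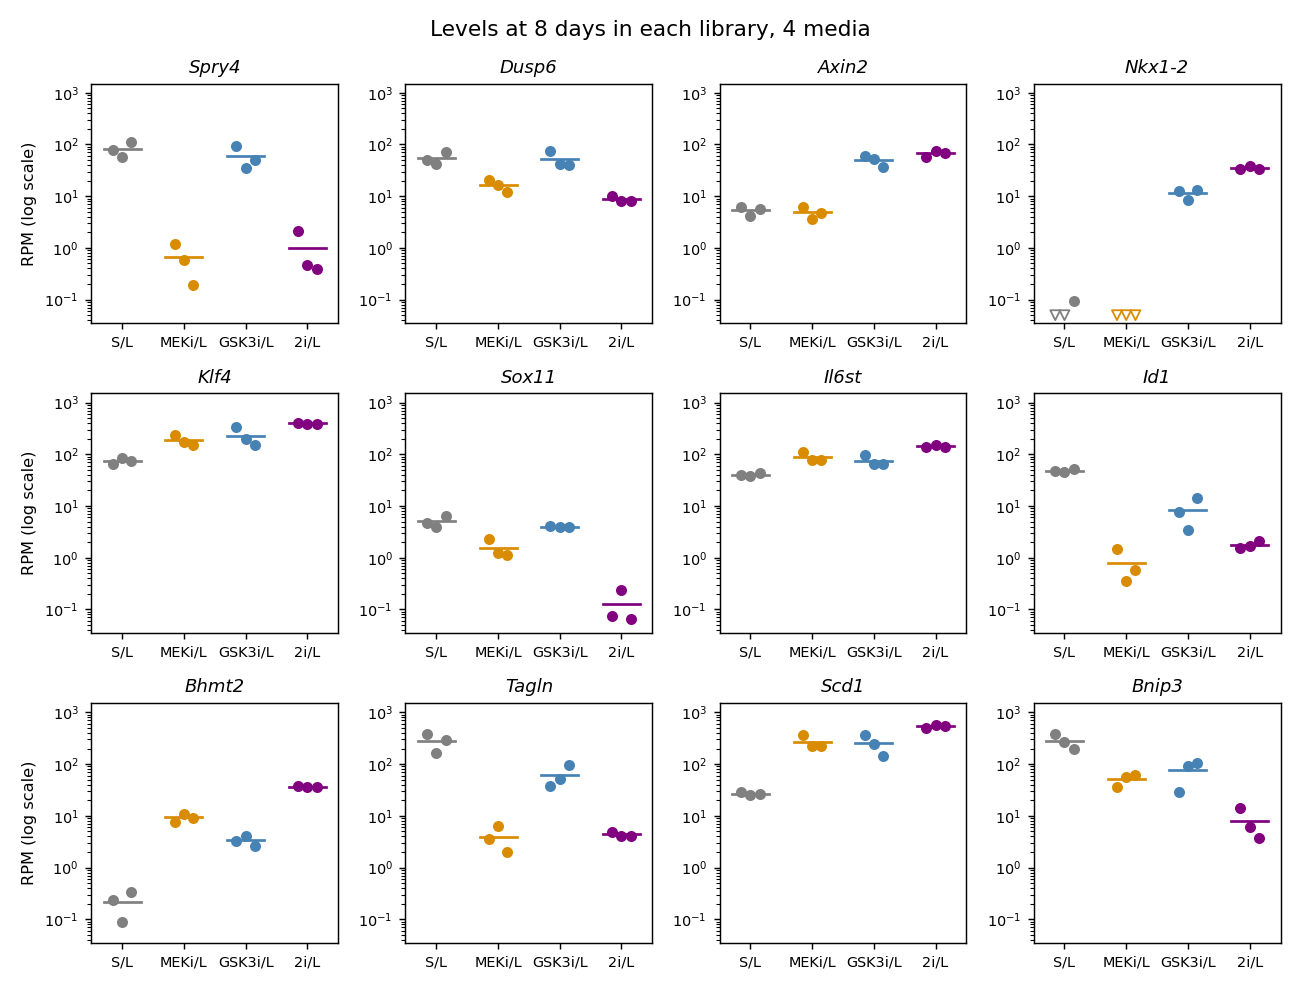
Level of 12 genes in every library at 8 days in 4 media (RPM, log scale), with bars at group means and open triangles, drawn at a fixed low position, for libraries with 0 reads. Spry4 and Dusp6 are low in both media with the MEK inhibitor, Axin2 and Nkx1-2 are high in both media with the GSK3 inhibitor, and Tagln and Bnip3 are highest in S/L.

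Targets and feedback genes of the Wnt/beta-catenin pathway mostly rose. Axin2, a negative feedback scaffold, had 57.0, 76.3 and 67.7 RPM in 2i/L and 6.08, 4.20 and 5.67 RPM in S/L, a log2 difference of 3.66 ± 0.24 (SE, limma adjusted p = 6.2e-08). Cdx1, a caudal homeobox gene, had 8.23, 8.77 and 10.2 RPM in 2i/L and 0.878, 0.142 and 0.794 RPM in S/L, a log2 difference of 4.29 ± 0.60 (SE, limma adjusted p = 4.3e-05). T (brachyury, a T-box factor of the primitive streak) had 1.98, 4.66 and 4.50 RPM in 2i/L and 1.62, 0.379 and 0.435 RPM in S/L, a log2 difference of 2.43 ± 0.54 (SE, limma adjusted p = 0.0015). The libraries of the 2 media were apart for all of these genes. Sp5, a zinc finger factor, rose from 4.85, 1.70 and 3.27 RPM to 17.1, 30.4 and 22.2 RPM (2.91 ± 0.54, SE, limma adjusted p = 4.0e-04) and did not pass with the covariate (1.57, adjusted p = 0.1). Sfrp1, a secreted Wnt antagonist, rose by 3.67, from 21.1, 32.5 and 28.8 RPM to 344, 358 and 334 RPM. Of 20 tested targets 12 rose and 1 fell (median 1.17), and with the covariate 6 rose and 1 fell. The fall was of Ascl2 (-0.91), which did not pass with the covariate or without 2i/L replicate 1 (-0.76), 2i/L replicate 2 (-0.89), S/L replicate 1 (-0.93), S/L replicate 2 (-0.88) or S/L replicate 3 (-0.94), and the fall with the covariate was of Lgr4.

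The windows of 250 bases before the RefSeq start of Sp5 and T hold the core of the TCF motif (CTTTGAA or CTTTGAT on either strand) and are shown for that reason, with the motif in capitals. Both read 5′ to 3′ on the plus strand of GRCm38.p6, Sp5 at chr2:70474673-70474922 and T at chr17:8434173-8434422.
Sp5: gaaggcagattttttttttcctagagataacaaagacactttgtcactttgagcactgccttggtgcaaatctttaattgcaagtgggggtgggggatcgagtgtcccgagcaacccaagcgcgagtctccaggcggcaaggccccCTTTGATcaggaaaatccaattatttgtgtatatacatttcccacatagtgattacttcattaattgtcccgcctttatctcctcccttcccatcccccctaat
T: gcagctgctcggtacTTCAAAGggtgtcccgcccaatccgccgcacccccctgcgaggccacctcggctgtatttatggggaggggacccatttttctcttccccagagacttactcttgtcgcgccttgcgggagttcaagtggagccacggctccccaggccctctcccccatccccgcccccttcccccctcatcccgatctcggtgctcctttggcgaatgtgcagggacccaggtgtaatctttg
In Sp5 the motif reads on the strand of the gene and in T on the other. Of 13 targets with a window 5 held the motif (Dkk1, Sp5, Sp8, T and Tnfrsf19), against 7.48% of all 32851 windows. For this motif and those below, a gene was counted where any of its windows held the motif. The share is per window, so the units are not the same. Of the 22 listed targets in the table, 9 had no window. Dkk1 was at 0.838, 0.869 and 0.529 RPM in 2i/L and 0.344, 0.467 and 0.155 RPM in S/L and Sp8 at 0.533, 1.19 and 1.19 RPM and 1.19, 0.647 and 1.19 RPM, and neither passed. Windows with the motif were found in genes that rose and in genes that did not pass.

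Ligands and receptors of the pathway were lower in 11 and higher in 7 of 23 tested members (median -0.53, and 9 lower and 4 higher with the covariate), and Wnt4 and Wnt8a passed the filter only through S/L. Porcn, the acyltransferase that every Wnt ligand needs for secretion, had 0.381, 0.553 and 0.661 RPM in 2i/L and 23.2, 15.1 and 14.5 RPM in S/L, a log2 difference of -5.05 ± 0.56 (SE, limma adjusted p = 5.9e-06). Fzd10, a Frizzled receptor, had 70.6, 93.9 and 82.3 RPM in 2i/L and 10.98, 9.61 and 9.46 RPM in S/L, a log2 difference of 3.03 ± 0.17 (SE, limma adjusted p = 1.3e-08). Both separated the media, in opposite directions. Wnt11 rose from 0.0918, 0.142 and 0.435 RPM to 1.37, 1.58 and 3.17 RPM (3.41), while Wnt8a had 0 reads in 2i/L and was at least 6-fold lower than in S/L (2.11, 0.559 and 1.47 RPM). Wnt4 was at 4.71, 1.59 and 2.45 RPM in S/L with 3 reads in all of 2i/L. Fzd7 fell by 1.38 on the log2 scale. In the destruction complex and its factors 15 of 20 rose and 2 fell (median 0.92), but with the covariate 3 rose and 3 fell. Gsk3b, one of the 2 genes for the inhibited kinase, rose from 26.1, 30.1 and 28.3 RPM to 112, 123 and 109 RPM (2.02 ± 0.27, SE, limma adjusted p = 3.4e-05), and Tle3, a corepressor of TCF factors, rose by 2.26. Lef1, the TCF family member linked to activation, fell from 15.5, 10.4 and 16.0 RPM to 1.22, 1.19 and 0.86 RPM (-3.68). Tcf7 (1.52), Tcf7l1 (1.46) and Ctnnb1, which encodes beta-catenin (0.71), rose but did not pass with the covariate, and Ctnnb1 also not without 2i/L replicate 1 (0.72), 2i/L replicate 2 (0.72), 2i/L replicate 3 (0.69) or S/L replicate 1 (0.52).

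In the single-inhibitor media Axin2 was at 6.28, 3.60 and 4.74 RPM (MEKi/L) and 59.2, 51.4 and 36.9 RPM (GSK3i/L). 2i/L differed from MEKi/L by 3.81 ± 0.24 (adjusted p = 7.2e-07) for Axin2 and by 7.00 ± 0.60 (adjusted p = 7.6e-06) for Cdx1. It differed from GSK3i/L by 0.46 ± 0.24 (adjusted p = 0.15) and 1.22 ± 0.60 (adjusted p = 0.13), and neither of these passed. T was at 15.2, 8.92 and 12.7 RPM in GSK3i/L and at 0.127, 0.288 and 0.284 RPM in MEKi/L, and its level in 2i/L was lower than in GSK3i/L (-1.79 ± 0.54, adjusted p = 0.024), a call lost with the covariate (-1.44, adjusted p = 0.11). Nkx1-2 had 0 reads in the 3 libraries of MEKi/L and stood at 12.5, 8.54 and 13.3 RPM in GSK3i/L.

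Naive pluripotency factors mostly rose, and formative and primed factors mostly fell. Klf4, a Kruppel-like factor that LIF sustains, had 411, 387 and 389 RPM in 2i/L and 64.6, 83.7 and 75.2 RPM in S/L, a log2 difference of 2.42 ± 0.25 (SE, limma adjusted p = 3.6e-06). Tfcp2l1, which links LIF and Wnt signals to self-renewal, had 1166, 1157 and 1250.1 RPM in 2i/L and 57.5, 95.7 and 85.3 RPM in S/L, a log2 difference of 3.94 ± 0.35 (SE, limma adjusted p = 8.2e-07). Prdm14, a repressor of FGF signalling and of de novo methylation, had 71.3, 54.8 and 68.0 RPM in 2i/L and 10.1, 9.19 and 6.81 RPM in S/L, a log2 difference of 2.90 ± 0.25 (SE, limma adjusted p = 7.2e-07). The 2i/L libraries were uniformly high for all of these. Tbx3 (2.66), Nr5a2 (2.52), Klf5 (1.76), Pecam1 and Nanog rose as well. Esrrb (1.61) and Klf2 (0.86) rose but did not pass with the covariate (0.43, adjusted p = 0.26 and 0.25, adjusted p = 0.49). Gbx2, a homeobox factor counted among naive genes, went the other way with 11.3, 14.9 and 11.4 RPM in 2i/L and 45.7, 32.5 and 60.4 RPM in S/L, a log2 difference of -1.85 ± 0.26 (SE, limma adjusted p = 5.2e-05). Nr0b1 also fell (-0.74), a call lost without 2i/L replicate 2 (-0.52) or S/L replicate 3 (-0.60). Of 22 tested naive genes 15 rose and 5 fell (median 0.99), and 11 rose and 3 fell with the covariate. Gbx2 was at 2.28, 1.22 and 1.61 RPM in MEKi/L and 34.7, 26.0 and 24.3 RPM in GSK3i/L, so its 2i/L level lay above the first (2.91 ± 0.26, adjusted p = 1.3e-05) and below the second (-1.17 ± 0.26, adjusted p = 0.0051).

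Formative and primed factors showed the lowest median of the pluripotency lists, -2.92, with 16 of 19 tested members lower and 0 higher, and the same counts with the covariate. Pou3f1 (Oct6), a POU factor of the primed epiblast, had 0.686, 0.316 and 0.529 RPM in 2i/L and 35.1, 29.4 and 49.9 RPM in S/L, a log2 difference of -6.26 ± 0.55 (SE, limma adjusted p = 8.4e-07). Sox11 had 0.0762, 0.237 and 0.0661 RPM in 2i/L and 4.71, 4.00 and 6.37 RPM in S/L, a log2 difference of -5.54 ± 0.45 (SE, limma adjusted p = 4.4e-07), and rests on 5 reads in 2i/L. Tcf15, a helix-loop-helix factor that primes cells for differentiation, had 2.90, 2.85 and 2.25 RPM in 2i/L and 72.2, 74.4 and 72.1 RPM in S/L, a log2 difference of -4.78 ± 0.27 (SE, limma adjusted p = 1.8e-08). Serum libraries were higher for all of them, by margins wider than the spread of either group. Sox3 (-5.11) and Zic5 (-2.67) fell too, and Car4 was at 18.7, 13.97 and 16.0 RPM in S/L with 2 reads in 2i/L. Otx2, the factor that drives exit from the naive state, did not pass. Otx2 had 58.3, 34.8 and 42.3 RPM in 2i/L and 54.0, 29.5 and 38.3 RPM in S/L, and its small log2 difference (0.16) changed sign with the scaling (-0.13 with quantile normalization, -0.14 with median centring). Between the media without serum Otx2 differed: it was at 140.4, 127 and 123 RPM in MEKi/L and 15.4, 7.37 and 11.2 RPM in GSK3i/L, and 2i/L was lower than the first (-1.56 ± 0.29, adjusted p = 0.003) and higher than the second (2.03 ± 0.29, adjusted p = 1.9e-04).

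Of core and general pluripotency genes, 9 of 19 tested members fell, 4 rose and 6 did not pass (median -0.45, and 8 lower and 2 higher with the covariate). Pou5f1 (Oct4) did not pass, with 1169, 1080.0 and 1111 RPM in 2i/L and 1364, 1387 and 1492 RPM in S/L, and its difference of -0.34 became 0.13 with quantile normalization. Nanog had 722, 678 and 773 RPM in 2i/L and 349, 384 and 399 RPM in S/L, a log2 difference of 0.94 ± 0.18 (SE, limma adjusted p = 6.2e-04). Dppa2 and Dppa4, paired regulators of bivalent chromatin, fell by 3.22 and 2.31 on the log2 scale. Lin28b, which blocks let-7 maturation, had 5.03, 5.30 and 5.22 RPM in 2i/L and 27.0, 21.9 and 31.9 RPM in S/L, a log2 difference of -2.36 ± 0.22 (SE, limma adjusted p = 1.2e-06). In these genes too the 6 libraries split by medium. Tdh, the threonine dehydrogenase of mouse embryonic stem cells, rose by 1.32. Sox2 (0.91) and Sall4 (1.08) rose and Zfp42 (-0.87), Tdgf1 (-1.30) and Dppa5a (-1.60) fell, and none of these 5 passed with the covariate. Zfp42 also did not pass without 2i/L replicate 2 (-0.81), 2i/L replicate 3 (-0.81) or S/L replicate 3 (-0.80).

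The LIF-STAT3 pathway was higher in its components, with 11 of 12 tested members up, 0 down and a median of 1.44 (5 up and 0 down with the covariate). Osm had 27.2, 28.5 and 29.0 RPM in 2i/L and 0.0918, 0.306 and 0.331 RPM in S/L, a log2 difference of 7.07 ± 0.37 (SE, limma adjusted p = 1.1e-08). Il6st (gp130), the shared signalling receptor of LIF and oncostatin M, had 138, 148 and 138 RPM in 2i/L and 40.7, 37.7 and 42.9 RPM in S/L, a log2 difference of 1.81 ± 0.18 (SE, limma adjusted p = 2.5e-06). Lifr, its partner for LIF, had 98.5, 102 and 116 RPM in 2i/L and 36.0, 31.6 and 29.9 RPM in S/L, a log2 difference of 1.70 ± 0.25 (SE, limma adjusted p = 8.0e-05). All 3 genes were higher in each 2i/L library than in any of S/L. Osmr, the receptor of oncostatin M, was at 0.344, 0 and 0.0935 RPM in S/L and 0.0762, 0.079 and 0.463 RPM in 2i/L and did not pass. Stat5a (2.92) and Jak2 (2.08) rose. Stat3 (1.39) and Jak1 (1.14) rose but did not pass with the covariate. Targets did not move one way: 5 of 11 rose and 2 fell (median -0.01, and 1 and 3 with the covariate). Ly6a (Sca-1), the steepest of them, had 72.9, 60.5 and 51.0 RPM in 2i/L and 2.48, 2.48 and 1.57 RPM in S/L, a log2 difference of 4.84 ± 0.28 (SE, limma adjusted p = 1.9e-08). Socs3, the classic feedback target, rose by 0.67 and did not pass with the covariate (0.31, adjusted p = 0.42) or without 2i/L replicate 3 (0.52).

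Id genes, which encode inhibitors of helix-loop-helix factors and are induced by BMP, split within their family. Id1 had 1.52, 1.66 and 2.12 RPM in 2i/L and 47.6, 45.1 and 53.1 RPM in S/L, a log2 difference of -4.79 ± 0.49 (SE, limma adjusted p = 3.2e-06). Id2 (-3.30) and Id3 (-2.63) fell likewise, with S/L values of 39.8, 44.1 and 39.0 RPM and 28.4, 27.8 and 19.7 RPM. Id4, in contrast, had 32.6, 30.3 and 36.8 RPM in 2i/L and 1.62, 1.89 and 1.39 RPM in S/L, a log2 difference of 4.35 ± 0.21 (SE, limma adjusted p = 7.6e-09). No library of one medium reached the values of the other in any of the 4 genes. Bmp4 fell (4.42, 1.98 and 1.26 RPM in 2i/L, 15.2, 9.82 and 11.5 RPM in S/L, -2.43), while Bmp7 (2.82) and the receptor gene Acvr1 (2.03) rose. Smad9 had 10.8, 10.99 and 13.3 RPM in 2i/L and 0.0918, 0.142 and 0.0935 RPM in S/L, a log2 difference of 6.77 ± 0.27 (SE, limma adjusted p = 1.9e-09). All S/L values of Smad9 lay below the floor of 3 reads in a library, so the size of its fold is uncertain. Of 14 tested SMAD and target genes 4 rose and 6 fell (median 0.27, and 3 and 4 with a median of -0.19 with the covariate), and of 9 ligands and receptors 5 rose and 2 fell (2 and 1 with the covariate). Id1 was at 1.46, 0.36 and 0.569 RPM in MEKi/L and 7.68, 3.42 and 14.4 RPM in GSK3i/L.

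Nodal and activin genes also changed in both directions. In the fit with group only, their shares were near those of all tested genes (39.1% rose and 24.4% fell). Lefty1, a secreted Nodal inhibitor, had 17.8, 11.5 and 12.3 RPM in 2i/L and 131, 195 and 95.2 RPM in S/L, a log2 difference of -3.30 ± 0.29 (SE, limma adjusted p = 8.4e-07). Smad3 had 60.9, 62.0 and 50.3 RPM in 2i/L and 4.16, 8.51 and 8.62 RPM in S/L, a log2 difference of 3.09 ± 0.31 (SE, limma adjusted p = 2.9e-06). The media did not overlap for either gene. Inhbb, an activin subunit, fell by 4.38 on the log2 scale, and Tgfbr2 rose from 0.45, 0.306 and 0.155 RPM to 9.37, 8.93 and 8.79 RPM (5.03). Lefty2, the neighbour of Lefty1 in the genome, rose (1.63) but did not pass with the covariate (0.87, adjusted p = 0.097). Nodal itself did not pass, with 87.9, 71.2 and 74.7 RPM in 2i/L and 95.4, 79.9 and 96.6 RPM in S/L. Of 19 tested members 8 rose and 5 fell (median 0.18, and 4 and 4 with the covariate, while median centring gave 6 and 8 with a median of -0.13).

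Genes of the methionine cycle were among the steepest rises. Bhmt2 and Bhmt encode enzymes that pass a methyl group to homocysteine (Bhmt from betaine), and Dmgdh breaks down the dimethylglycine that this leaves. Bhmt2 had 38.3, 36.0 and 35.4 RPM in 2i/L and 0.241, 0.0893 and 0.331 RPM in S/L, a log2 difference of 7.57 ± 0.39 (SE, limma adjusted p = 1.1e-08). Dmgdh had 99.1, 96.0 and 89.6 RPM in 2i/L and 0.554, 0.925 and 0.517 RPM in S/L, a log2 difference of 7.20 ± 0.21 (SE, limma adjusted p = 5.8e-11). Bhmt had 24.3, 18.5 and 18.7 RPM in 2i/L and 0.154, 0.306 and 0.0935 RPM in S/L, a log2 difference of 6.95 ± 0.44 (SE, limma adjusted p = 5.3e-08). Serum libraries held few reads of these genes (8, 23 and 7 in all, in that order) and the 2i/L libraries were close to one another. Cbs, the first enzyme of transsulfuration, rose from 16.3, 22.5 and 21.7 RPM to 167, 235 and 186 RPM (3.28 ± 0.28, SE, limma adjusted p = 6.5e-07), and Mtr (methionine synthase) by 2.07. Gnmt, which uses up S-adenosylmethionine, fell from 6.48, 7.72 and 5.02 RPM to 0.915, 0.316 and 0.595 RPM (-3.50 ± 0.43, SE, limma adjusted p = 1.6e-05). Mat2a, which makes S-adenosylmethionine, fell by 0.99 and did not pass with the covariate or without 2i/L replicate 2 (-0.85) or S/L replicate 3 (-0.94). Of 18 tested members 15 rose and 3 fell (median 0.95), and 10 rose and 1 fell with the covariate.

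Bhmt2 (chr13:93655720-93674302, minus strand) and Dmgdh (chr13:93674433-93752831, plus strand) start head to head. RefSeq places the start of Dmgdh slightly downstream of the one in the deposited table. The 133 bases between the RefSeq starts, chr13:93674303-93674435 of GRCm38.p6 read on the plus strand, are shown because both genes beside them rose, with the 6 CG dinucleotides in capitals.
Bhmt2-Dmgdh: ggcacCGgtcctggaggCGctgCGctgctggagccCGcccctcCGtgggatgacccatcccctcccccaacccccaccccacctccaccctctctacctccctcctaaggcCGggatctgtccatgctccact
After these values were seen, the tested genes that lie wholly or in part within 0.5 Mb of the start of Dmgdh were listed. All 10 rose in 2i/L, where 39.1% of all tested genes rose. Bhmt2, Dmgdh and Bhmt, whose rises led to the choice of this window, are among the 10 and are no support for a shared rise. Gm15622, inside Bhmt on the other strand, had 0 reads in S/L and 3.12, 2.77 and 2.05 RPM in 2i/L. AW495222, inside Dmgdh on the other strand, had a log2 difference of 5.54 ± 0.46 (SE, limma adjusted p = 4.7e-07). Whether reads were counted by strand is not given in the sources used here, so reads of these and of the genes around them cannot be told apart. Farther out, Arsb (arylsulfatase B) had a log2 difference of 2.99 ± 0.72 (adjusted p = 0.0028) and Lhfpl2 of 4.19 ± 0.72 (adjusted p = 2.3e-04). On the other side Jmy had 1.20 ± 0.26, Papd4 0.82 ± 0.14 and Homer1 0.44 ± 0.14 (adjusted p of 0.0012, 2.0e-04 and 0.014). Arsb (2.22, adjusted p = 0.16), Jmy (0.44, adjusted p = 0.31) and Homer1 (0.24, adjusted p = 0.42) did not pass with the covariate, and Homer1 also not with quantile normalization (adjusted p = 0.4) or median centring (adjusted p = 0.39). In the single-inhibitor media Bhmt2 was at 7.68, 10.9 and 9.29 RPM (MEKi/L) and 3.24, 4.16 and 2.63 RPM (GSK3i/L), and Bhmt at 10.9, 14.5 and 11.2 RPM and 0.0906, 0 and 0.182 RPM. 2i/L was above MEKi/L for Bhmt2 (1.99 ± 0.39, adjusted p = 0.0046), and for Bhmt the difference (0.75 ± 0.44, adjusted p = 0.25) did not pass.

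**Figure D3:**
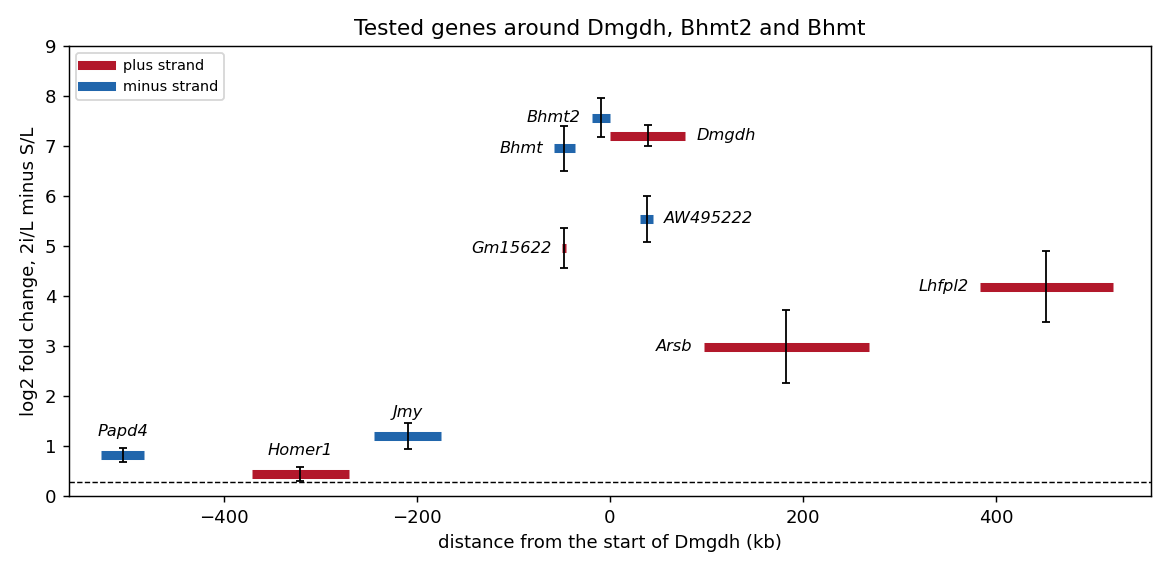
Log2 difference between 2i/L and S/L (vertical, with SE) of the 10 tested genes around Dmgdh against distance from the start of Dmgdh in kb (horizontal), with each gene drawn over its extent and coloured by strand. The dashed line is the median of all tested genes, 0.28. Bhmt, Bhmt2 and Dmgdh stand near 7, and Papd4, Homer1 and Jmy, farthest to the left, lie between 0.44 and 1.20.

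In serine, glycine and folate metabolism 9 of 20 tested genes rose and 6 fell (5 and 1 with the covariate). The shares of this list in the fit with group only were near those of all tested genes (39.1% rose and 24.4% fell). Aldh1l1, which oxidises formyl-tetrahydrofolate, had 78.9, 90.6 and 92.4 RPM in 2i/L and 2.70, 6.15 and 2.85 RPM in S/L, a log2 difference of 4.59 ± 0.40 (SE, limma adjusted p = 7.5e-07). Its mitochondrial counterpart Aldh1l2 rose by 2.61. Aass had 0.533, 0.237 and 0.463 RPM in 2i/L and 81.1, 47.5 and 66.3 RPM in S/L, a log2 difference of -7.35 ± 0.41 (SE, limma adjusted p = 1.7e-08). For Aldh1l1 the 2i/L libraries were the high ones, and for Aass those of S/L. Thymidylate synthase (Tyms, -1.35) and Gcsh (-1.04) fell and did not pass with the covariate. Of genes that act in DNA demethylation or make its cofactor 10 of 19 rose and 3 fell (median 0.61, and 5 and 3 with the covariate). Idh2, the mitochondrial isocitrate dehydrogenase, had 217, 248 and 250.5 RPM in 2i/L and 75.9, 84.1 and 74.2 RPM in S/L, a log2 difference of 1.61 ± 0.24 (SE, limma adjusted p = 6.9e-05). Gadd45a, a stress gene linked to demethylation, had 14.9, 22.4 and 26.2 RPM in 2i/L and 104, 78.8 and 109 RPM in S/L, a log2 difference of -2.23 ± 0.21 (SE, limma adjusted p = 1.5e-06). These too separated the media, in opposite directions. Tet1 (1.41) and Tet2 (1.39) rose and did not pass with the covariate, where Tet1 turned to -0.65. Tet1 also did not pass without S/L replicate 1 (1.32). Among methylation writers 7 of 14 rose and 3 fell (median 0.52, and 2 and 4 with the covariate), and the 3 that fell were Dnmt3a, Dnmt3b and Dnmt3l. Dnmt3l, the cofactor of de novo methylation, had 13.6, 11.3 and 4.03 RPM in 2i/L and 208, 277 and 307 RPM in S/L, a log2 difference of -4.93 ± 0.35 (SE, limma adjusted p = 1.4e-07). It was at 209.6, 126 and 127 RPM in MEKi/L and 182, 164 and 160.0 RPM in GSK3i/L, so 2i/L was the lowest of the 4 media in every library.

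Polycomb genes rose in 11 and fell in 4 of 24 tested members (median 0.42, and 4 and 2 with the covariate). Bmi1, a ring finger protein of Polycomb complex 1, had 25.8, 23.7 and 27.6 RPM in 2i/L and 5.95, 5.11 and 3.71 RPM in S/L, a log2 difference of 2.41 ± 0.20 (SE, limma adjusted p = 4.2e-07). Suz12, a core subunit of Polycomb complex 2, rose by 1.88. Both were higher in the 2i/L libraries. Ezh2 (0.89) rose and Eed (-1.07) fell, and neither passed with the covariate. Writers, readers and erasers of H3K9 methylation rose in 11 and fell in 1 of 19 (3 and 2 with the covariate), led by the demethylase gene Kdm3b (2.09).

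Among contractile targets of serum response factor (SRF), the steepest falls were those of Cnn1, Tagln and Myl9. Tagln (transgelin, which binds actin) had 4.88, 4.03 and 4.17 RPM in 2i/L and 382, 163 and 291 RPM in S/L, a log2 difference of -5.92 ± 0.44 (SE, limma adjusted p = 1.8e-07). Cnn1 (calponin) had 0.0762, 0 and 0.264 RPM in 2i/L and 13.4, 8.95 and 12.2 RPM in S/L, a log2 difference of -6.65 ± 0.62 (SE, limma adjusted p = 1.5e-06), with 5 reads in 2i/L. Myl9, a myosin light chain, had 0.152, 0.237 and 0.397 RPM in 2i/L and 11.6, 6.83 and 12.4 RPM in S/L, a log2 difference of -5.36 ± 0.36 (SE, limma adjusted p = 8.8e-08). Each S/L library was above each of 2i/L, and replicate 2 of S/L was the lowest of its group for Tagln. Acta2 (-2.06), Zyx (-2.94) and Tpm2 (-2.72) fell too. Other targets rose: Cald1 by 1.90, and Myh9 (1.60), Actn1 (1.55) and Vcl (1.06), of which the last 3 did not pass with the covariate. Srf itself did not pass, with 43.5, 43.0 and 35.8 RPM in 2i/L and 31.1, 42.5 and 52.0 RPM in S/L. Of 27 tested targets 12 fell and 9 rose (median -0.31), and 13 fell and 3 rose with the covariate.

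Sequences with a CArG box, the motif that SRF binds, are shown with the box in capitals, from the 250 bases before the RefSeq start of GRCm38.p6, on the plus strand: Myl9 at chr2:156775214-156775463 and Cnn2, a calponin gene that also fell (-1.11), at chr10:79988350-79988599.
Myl9: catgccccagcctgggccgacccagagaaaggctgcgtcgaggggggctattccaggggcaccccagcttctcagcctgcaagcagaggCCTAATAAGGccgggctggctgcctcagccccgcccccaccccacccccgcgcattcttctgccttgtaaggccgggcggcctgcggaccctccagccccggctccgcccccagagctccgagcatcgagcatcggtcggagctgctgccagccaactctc
Cnn2: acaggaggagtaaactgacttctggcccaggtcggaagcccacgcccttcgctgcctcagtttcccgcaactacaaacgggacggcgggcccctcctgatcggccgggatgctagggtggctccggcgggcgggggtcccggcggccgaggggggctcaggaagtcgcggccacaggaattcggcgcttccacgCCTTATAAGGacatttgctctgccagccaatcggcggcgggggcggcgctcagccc
Of 24 targets with a window 8 held a CArG box (Actg1, Cnn2, Fhl1, Fhl2, Myl6, Myl9, Srf and Vcl), against 1.47% of all windows. Fhl1 (1.37) and Vcl rose, and Cnn2, Myl9 and Myl6 (-1.42, not with the covariate) fell. Actg1 (-0.31), Fhl2 (-1.24) and Srf did not pass, so the box was present in windows of each kind.

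YAP-TEAD genes rose in 6 and fell in 6 of 13 tested members (2 and 4 with the covariate). Tead4 had 66.2, 55.2 and 58.4 RPM in 2i/L and 4.16, 6.52 and 5.34 RPM in S/L, a log2 difference of 3.51 ± 0.28 (SE, limma adjusted p = 4.2e-07), and Thbs1, a secreted glycoprotein, fell by 2.63. Junction genes rose in 9 and fell in 11 of 27 (median 0.00, and 4 and 10 with the covariate). Epcam, an epithelial adhesion molecule, had 18.8, 28.1 and 29.6 RPM in 2i/L and 162, 162 and 159 RPM in S/L, a log2 difference of -2.69 ± 0.18 (SE, limma adjusted p = 6.2e-08). Gja1, the connexin of most embryonic gap junctions, had 20.7, 19.8 and 17.4 RPM in 2i/L and 152, 150.0 and 182 RPM in S/L, a log2 difference of -3.06 ± 0.17 (SE, limma adjusted p = 1.8e-08). Both genes were higher in serum with no overlap. Esrp1, an epithelial splicing regulator, fell by 4.65, and the desmosome gene Dsg2 rose by 2.79. Cdh1 (E-cadherin) rose by 1.75 and did not pass with the covariate (0.44, adjusted p = 0.057).

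Matrix genes rose in 15 and fell in 5 of 26 tested members (median 0.86, and 9 and 6 with a median of -0.12 with the covariate). Nid1, which joins laminin to collagen IV in basement membranes, had 609.8, 521 and 684 RPM in 2i/L and 38.7, 37.9 and 36.2 RPM in S/L, a log2 difference of 4.00 ± 0.31 (SE, limma adjusted p = 3.2e-07). Lama1, a chain of the early embryonic laminin, had 259, 288 and 335 RPM in 2i/L and 23.8, 34.7 and 35.4 RPM in S/L, a log2 difference of 3.25 ± 0.36 (SE, limma adjusted p = 6.3e-06). Fn1 (fibronectin) rose by 3.14, a value that came to 1.04 with the covariate. Col4a1, the collagen IV chain itself, had 7.70, 8.22 and 7.93 RPM in 2i/L and 18.7, 23.6 and 22.7 RPM in S/L, a log2 difference of -1.44 ± 0.36 (SE, limma adjusted p = 0.0034). Nid1 and Lama1 were thus high in 2i/L where Col4a1 was high in serum. Timp2, an inhibitor of metalloproteinases, also fell (-2.23). Among integrins 5 of 13 rose, with Itgav at 2.30, and 3 fell, with Itga9 at -3.45 (2 and 4 with the covariate). The integrin shares in the fit with group only were near those of all tested genes (39.1% rose and 24.4% fell), and the median was -0.14.

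Most lipid synthesis genes rose: 20 of 28 tested sterol genes and 12 of 13 fatty acid genes were higher, and 1 of each was lower (medians 0.77 and 1.71). With the covariate these counts became 12 and 8 higher, and 2 and 1 lower. Scd1, a stearoyl-CoA desaturase, had 504, 583 and 535 RPM in 2i/L and 29.0, 24.9 and 26.4 RPM in S/L, a log2 difference of 4.34 ± 0.28 (SE, limma adjusted p = 6.8e-08). Scd2, its embryonic relative, had 1443, 1543 and 1282 RPM in 2i/L and 205, 181 and 221 RPM in S/L, a log2 difference of 2.81 ± 0.30 (SE, limma adjusted p = 4.8e-06). Neither gene had overlapping groups. Acss2, which makes acetyl-CoA from acetate, rose by 2.18, and Hmgcs1, an early enzyme of the sterol pathway, by 1.30. Fasn (fatty acid synthase) rose by 1.71 and did not pass with the covariate. Idi1 (-1.06) and Acsl4 (-0.63) were the 2 that fell. Idi1 did not pass with the covariate or without S/L replicate 1 (-0.96), and Acsl4 not without 2i/L replicate 1 (-0.60), 2i/L replicate 3 (-0.56), S/L replicate 1 (-0.55) or S/L replicate 3 (-0.55). Scd1 was at 367, 228 and 226 RPM in MEKi/L and 372, 246 and 142 RPM in GSK3i/L, so all 3 media without serum were above S/L in every library.

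Lysosome genes were higher in 29 and lower in 4 of 40 tested members, with a median of 0.96, and 24 and 2 with the covariate. Ctsc (cathepsin C) had 52.0, 76.1 and 81.5 RPM in 2i/L and 5.42, 3.77 and 3.92 RPM in S/L, a log2 difference of 3.99 ± 0.26 (SE, limma adjusted p = 5.4e-08). Mitf, a factor of the TFE family that induces lysosome genes, had 68.9, 59.2 and 85.0 RPM in 2i/L and 6.35, 4.64 and 5.45 RPM in S/L, a log2 difference of 3.69 ± 0.27 (SE, limma adjusted p = 1.5e-07). Gpnmb, a glycoprotein of melanosomes and lysosomes, had 8.54, 9.25 and 12.1 RPM in 2i/L and 0.344, 0.215 and 0.155 RPM in S/L, a log2 difference of 5.45 ± 0.30 (SE, limma adjusted p = 1.6e-08). For each, 2i/L was high in all 3 libraries. Tfeb rose by 1.55, Lamp1 by 0.91 and Hexa (a hexosaminidase subunit) by 2.35. Tfe3, the family member known to act in exit from pluripotency, rose by 0.85 and did not pass with the covariate (-0.21, adjusted p = 0.51), after median centring (0.54) or without S/L replicate 1 (0.65). Tfec had 0 reads in 2i/L and was at least 2-fold lower there. Manba, a lysosomal mannosidase, fell (-1.28).

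The motif CACGTGAC, which holds the E-box that TFE factors bind, is shown in capitals (on either strand) in the 250 bases before the RefSeq starts of Ctsd and Glb1, each printed on the strand of its gene in GRCm38.p6: Ctsd at chr7:142387828-142388077 on the minus strand and Glb1 at chr9:114400828-114401077 on the plus strand.
Ctsd: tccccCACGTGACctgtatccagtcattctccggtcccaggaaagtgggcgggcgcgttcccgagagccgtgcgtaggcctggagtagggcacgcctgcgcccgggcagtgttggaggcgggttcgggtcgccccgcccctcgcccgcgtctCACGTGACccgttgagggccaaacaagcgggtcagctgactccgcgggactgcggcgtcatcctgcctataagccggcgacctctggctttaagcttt
Glb1: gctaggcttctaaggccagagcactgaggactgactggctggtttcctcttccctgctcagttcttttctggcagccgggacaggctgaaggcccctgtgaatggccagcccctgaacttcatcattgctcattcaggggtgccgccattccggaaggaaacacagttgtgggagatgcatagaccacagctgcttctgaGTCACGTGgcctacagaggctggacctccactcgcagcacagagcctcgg
Ctsd, for cathepsin D, has 2 matches and had a log2 difference of 0.78 ± 0.19 (SE, limma adjusted p = 0.0032). Glb1, for lysosomal beta-galactosidase, has 1 and had a log2 difference of 2.01 ± 0.22 (SE, limma adjusted p = 5.4e-06). Of 32 members with a window 6 held the motif (Ctsa, Ctsd, Gla, Glb1, Lamp1 and Mcoln1), against 1.85% of all windows. Of these 6, all but Gla rose, and Gla was at 25.1, 27.7 and 27.3 RPM in 2i/L and 39.7, 39.9 and 31.8 RPM in S/L. Mcoln1 (0.61) did not pass with the covariate or without 2i/L replicate 3 (0.55) or S/L replicate 3 (0.52). The windows of the other 26 members lack these letters, and these members include genes that rose.

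Glycolysis and hypoxia genes changed in both directions. In the fit with group only, the shares of this list were near those of all tested genes (39.1% rose and 24.4% fell). Bnip3, a mitophagy receptor that hypoxia induces, had 14.3, 6.09 and 3.77 RPM in 2i/L and 384, 267 and 200.2 RPM in S/L, a log2 difference of -5.31 ± 0.50 (SE, limma adjusted p = 1.5e-06). Egln3, a prolyl hydroxylase of the hypoxia response, had 1.45, 1.03 and 1.79 RPM in 2i/L and 14.3, 16.4 and 13.0 RPM in S/L, a log2 difference of -3.39 ± 0.28 (SE, limma adjusted p = 4.2e-07). Hk1, the ubiquitous hexokinase, had 233, 259.6 and 247 RPM in 2i/L and 17.0, 20.9 and 21.4 RPM in S/L, a log2 difference of 3.65 ± 0.37 (SE, limma adjusted p = 3.0e-06). The first pair were higher in serum and Hk1 in 2i/L, in every library. Ldha (lactate dehydrogenase) fell by 1.15 and Pdk1, which restrains pyruvate oxidation, by 2.02. Hk2 rose by 1.47 and turned to -0.06 with the covariate. Of 34 tested members 12 rose and 10 fell (median 0.06, and 4 and 11 with a median of -0.19 with the covariate). Bnip3 was at 35.5, 57.3 and 62.7 RPM in MEKi/L and 29.5, 93.2 and 107 RPM in GSK3i/L, and 2i/L was below both (-2.87 ± 0.50 (adjusted p = 0.0021) and -3.27 ± 0.50 (adjusted p = 3.5e-04)).

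**Figure D4:**
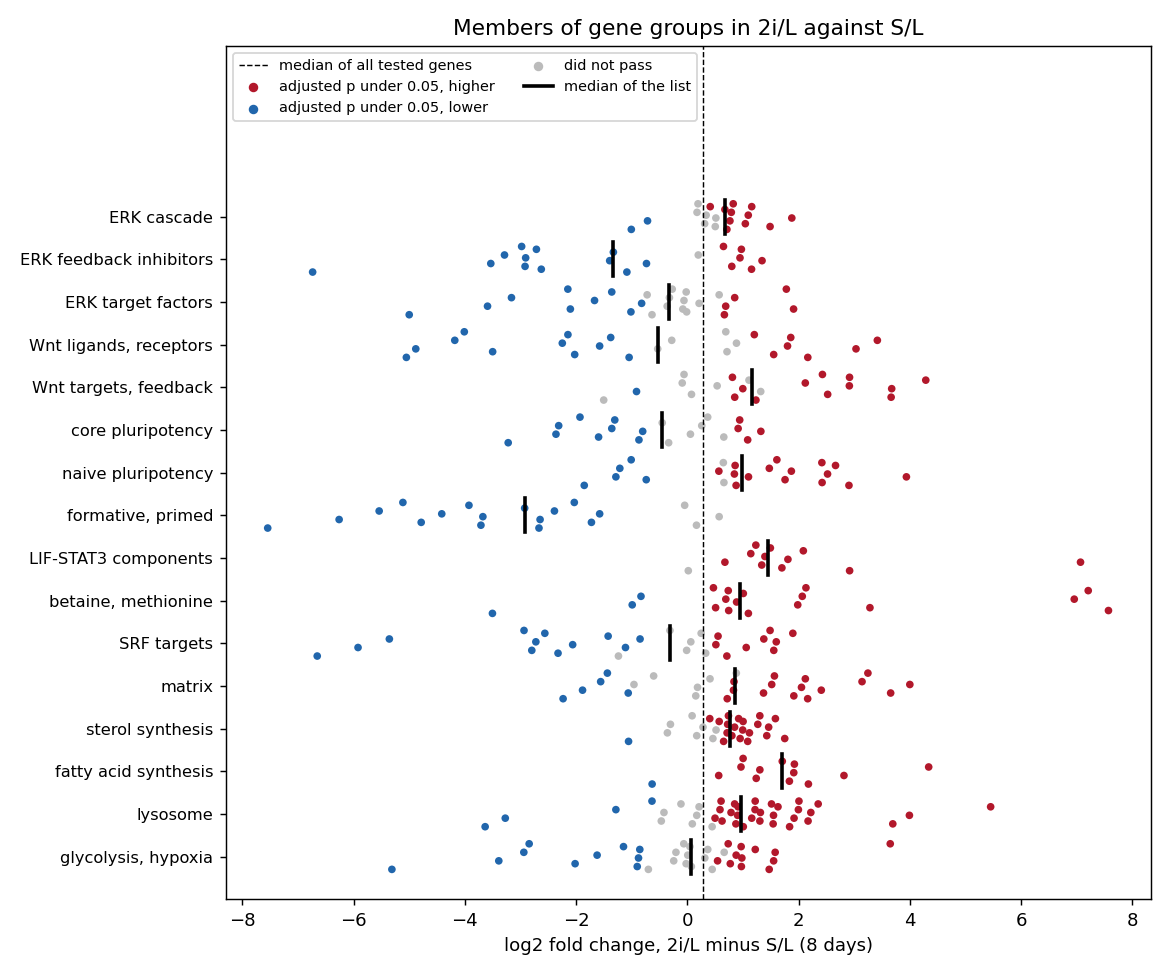
Log2 difference between 2i/L and S/L (horizontal) of every tested member of 16 gene groups, with red and blue points for members that rose or fell, grey for those that did not pass, a black bar at the median of the group and a dashed line at the median of all tested genes, 0.28. Values of genes with 0 to 3 reads in a group are fitted values and no measured fold. Formative and primed factors lie almost wholly to the left, and fatty acid synthesis, lysosome and LIF-STAT3 genes mostly to the right.

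Cell cycle and stress genes changed in part. Of 26 tested G1 regulators 11 rose and 4 fell (median 0.48, and 7 and 5 with the covariate). Cdkn1a (p21), an inhibitor of cyclin-dependent kinases, had 223, 273 and 334 RPM in 2i/L and 25.5, 52.7 and 40.6 RPM in S/L, a log2 difference of 2.85 ± 0.31 (SE, limma adjusted p = 4.8e-06). Cdkn1c (p57), its imprinted relative, had 3.73, 4.19 and 4.36 RPM in 2i/L and 86.2, 94.0 and 103 RPM in S/L, a log2 difference of -4.53 ± 0.24 (SE, limma adjusted p = 1.2e-08). Ccnd2 (cyclin D2) had 2.21, 1.42 and 1.72 RPM in 2i/L and 12.9, 9.37 and 15.9 RPM in S/L, a log2 difference of -2.83 ± 0.36 (SE, limma adjusted p = 2.2e-05). So p21 was high in 2i/L, and p57 and cyclin D2 were high in serum, without overlap. Cdkn2a rose by 2.59 and Ccne1 fell by 1.64. Cdkn1b (p27) did not pass, with 91.3, 98.3 and 100.3 RPM in 2i/L and 92.0, 79.9 and 68.3 RPM in S/L, and Ccnd1 (0.81) and Ccnd3 (1.45) rose but not with the covariate. Replication licensing genes rose in 13 and fell in 6 of 21 (1 and 0 with the covariate, and 4 and 7 after median centring). Without S/L replicate 1 the licensing genes that rose numbered 8. Of p53 targets 9 of 20 rose and 5 fell (2 and 3 with the covariate, 2 and 6 after median centring, and 5 that rose without S/L replicate 1), and Trp53 itself did not pass, with 427, 321 and 337 RPM in 2i/L and 214, 265 and 281 RPM in S/L. For p53 targets the shares in the fit with group only were near those of all tested genes (39.1% rose and 24.4% fell). Of ATF4 targets 12 of 23 rose and 1 fell (median 0.61, and 4 and 0 with the covariate), with Asns (asparagine synthetase) at 974, 1039 and 1141 RPM in 2i/L and 205, 228 and 272 RPM in S/L (2.17 ± 0.21, SE, limma adjusted p = 1.8e-06), while Atf4 itself did not pass (361, 453 and 433 RPM and 368, 249.6 and 338 RPM).

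Genes of the 2-cell-like state, a rare state in serum cultures, were close to absent in 2i/L. Of 21 listed genes 18 were in the table and 9 were tested, 8 of them fell and 0 rose (the same counts with the covariate), but 7 of the 9 passed the filter on low values only through S/L and so had to be lower. Zscan4d had 0 reads in 2i/L and 33.8, 23.2 and 15.5 RPM in S/L, at least 109-fold lower, and Zscan4c at least 27-fold. Zscan4 genes are near-identical copies whose reads the counting may have divided, so the split among them is uncertain. In MEKi/L and GSK3i/L, Zscan4d was at 0.19, 0 and 0 RPM and 0, 0.128 and 1.15 RPM. Germline genes with methylated promoters rose in 6 and fell in 11 of 28 tested members (median -0.70, and 6 and 7 with a median of 0.11 with the covariate). Mael, a piRNA pathway gene, had 2.97, 2.21 and 5.88 RPM in 2i/L and 61.7, 44.5 and 36.8 RPM in S/L, a log2 difference of -3.78 ± 0.43 (SE, limma adjusted p = 7.8e-06). Sycp3, of the synaptonemal complex, fell by 2.62, and Ddx4 (vasa) by 1.94. On the higher side Fkbp6 rose from 1.62, 2.58 and 2.85 RPM to 9.83, 6.48 and 12.4 RPM (2.02).

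Imprinted genes expressed from the paternal copy fell in 10 and rose in 3 of 21 tested members (8 and 2 with the covariate), and those from the maternal copy fell in 6 and rose in 4 of 14 (6 and 3). Among these falls 2 of the paternal and 1 of the maternal genes passed the filter only through S/L. Plagl1 had 12.3, 13.4 and 15.9 RPM in 2i/L and 0, 0.379 and 0.0935 RPM in S/L, a log2 difference of 6.59 ± 0.56 (SE, limma adjusted p = 6.1e-07). Dlk1, a Notch-like ligand, had 0.152, 0.158 and 0 RPM in 2i/L and 4.02, 3.44 and 7.12 RPM in S/L, a log2 difference of -5.36 ± 0.76 (SE, limma adjusted p = 5.1e-05), with 4 reads in 2i/L. Peg10, derived from a retrotransposon, had 17.7, 13.0 and 15.2 RPM in 2i/L and 135, 107 and 132 RPM in S/L, a log2 difference of -3.03 ± 0.39 (SE, limma adjusted p = 2.4e-05). Plagl1 was high in 2i/L and the others in serum. Dio3, at the far end of the imprinted cluster of Dlk1, rose from 0.99, 0.745 and 0.614 RPM to 13.6, 17.8 and 11.2 RPM (4.18), and Meg3, the maternally expressed RNA between them, did not pass (144, 135 and 141 RPM in 2i/L and 182, 138 and 197 RPM in S/L). Igf2 fell by 1.28.

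Guanylate-binding and interferon genes fell in 12 and rose in 6 of 26 tested members (median -0.97, and 11 and 3 with the covariate), but 5 of the falls passed the filter only through S/L. Another tested member, 1 in number, passed it only through 2i/L and is no support for a rise. Gbp2, a GTPase that interferon induces, was at 20.7, 6.64 and 12.6 RPM in S/L with 3 reads in 2i/L, and Psmb8, an immunoproteasome subunit, had 0 reads in 2i/L and was at least 14-fold lower. H2-K1, a classical MHC class I gene, had 4.73, 9.88 and 10.5 RPM in 2i/L and 27.4, 22.2 and 27.5 RPM in S/L, a log2 difference of -1.70 ± 0.30 (SE, limma adjusted p = 2.6e-04). Oas1a, by contrast, had 22.1, 17.0 and 15.2 RPM in 2i/L and 4.29, 2.78 and 2.54 RPM in S/L, a log2 difference of 2.52 ± 0.31 (SE, limma adjusted p = 1.7e-05), and the signal carrier Stat2 rose by 1.90. Irf1 did not pass, with 34.8, 31.9 and 39.2 RPM in 2i/L and 48.0, 31.2 and 41.8 RPM in S/L. The list thus had members on both sides. In the retinoic acid pathway 6 of 21 rose and 6 fell (2 and 4 with the covariate), and 2 of the falls passed the filter only through S/L. Rarg, a retinoic acid receptor, had 22.8, 16.3 and 11.4 RPM in 2i/L and 134, 149.9 and 175 RPM in S/L, a log2 difference of -3.23 ± 0.32 (SE, limma adjusted p = 2.6e-06). Aldh1a3, which makes retinoic acid, had 5.49, 5.69 and 7.47 RPM in 2i/L and 0, 0.215 and 0.232 RPM in S/L, a log2 difference of 5.26 ± 0.68 (SE, limma adjusted p = 2.4e-05). The receptor gene was high in serum and the enzyme in 2i/L. All S/L values of Aldh1a3 lay below the floor of 3 reads in a library, so the size of its fold is uncertain. The supplement of 2i/L lacks vitamin A, and the part of that lack in these differences was not tested.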

How the data were processed

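RNA was sequenced as poly(A) libraries with 50-base single reads, per the labels' protocols. HISAT2, Trim Galore 0.6.5, Bismark 0.22.3 and the build GRCm38 are named in the submitters' processing notes. For the aligner settings, annotation and strand use, the sources used here give nothing. The authors deposited log2 reads per 1000000 reads, with 1 column per library. Judged from the values as deposited, the 3 columns of S/L and those of GSK3i/L at 8 days (6 in all) had been matched to 1 shared distribution, while the other 8 were plain, with genes at 0 reads set to 0.9 read. Read totals of matched libraries are therefore approximate. Because the table holds log2 values and not counts, limma 3.58.1 (R 4.3.3, with trend and robust spread) was fitted to the 14980 genes that reached 0.5 RPM in 3 or more of the 14 libraries, with group as the only term, and p-values were adjusted by the Benjamini-Hochberg method over all of them. All p-values in the text come from such limma fits. The labels call the libraries of a group replicates without naming separate cultures, so p-values measure the spread between these samples, which may be technical. A fold against a group with 0 reads was computed against 3 reads in each library and is a lower bound that covers counting error only. The fit was also run on simulated data with few changed genes and with spread drawn for each gene alone. In the real data 63.6% of genes changed and the score moved with the medium, so that run cannot vouch for the calls given here.

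The compared groups, gene lists, motifs and score were chosen with earlier results of these data known. Genes named are the 15 largest rises and 15 largest falls of at least 2-fold without overlap whose higher group has a mean of 5 RPM or more, core members of each list and up to 3 rises and 3 falls for each role. Some genes that this rule picks are not reported here. Other named genes, and those around Dmgdh, were chosen after their values were seen. Promoter windows came from a RefSeq table of GRCm38.p6. Motifs were counted per gene in the lists (any window) and per window over all windows. Alternatives were quantile normalization, median centring, no filter, a pseudocount of 1 RPM, the 6 libraries alone, the replicate number as a block, the score as a covariate and leaving out each library in turn.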

Additional observations from a re-analysis of the deposited data

How the results depend on the processing

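At least 2-fold, 3543 genes were higher and 2770 lower, and with the score of long against short transcripts as covariate these counts were 1778 and 1356. The other alternatives stayed within 1.5 times of the first counts, and leaving out 1 library gave 3243 to 3620 higher and 2532 to 2756 lower genes. With the replicate number as a block 3545 were higher and 2789 lower. Deviations of same-numbered libraries correlated weakly (0.088, 0.13 and 0.0095), so the numbers were not taken to pair the libraries, although each library correlated best with its own number.

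Of 206 genes given with a fold, the calls of 32 were lost with no change of sign with the covariate, 7 with median centring, 3 with quantile normalization, 1 with the pseudocount and 1 to 6 without 1 library, and the cause was not tested. Median centring ended those of Ctnnb1, Homer1, Mcoln1, Socs3, Sox2, Tet1 and Tfe3, and quantile normalization those of Homer1, Mcoln1 and Socs3. With the covariate the log2 difference changed sign for Ctnnb1 (-0.17), Sox2 (-0.044), Sall4 (-0.21), Dppa5a (0.25), Otx2 (-0.14), Jak1 (-0.039), Tet1 (-0.65), Vcl (-0.014), Myh9 (-0.026), Hk2 (-0.065), Idi1 (0.14) and Tfe3 (-0.21). Quantile normalization did so for Pou5f1 (0.13) and Otx2 (-0.13), median centring for Otx2 (-0.14), and without 1 library Otx2 ranged from -0.044 to 0.39. Between 2i/L and MEKi/L, Spry4 did not pass and turned to -0.080 with the covariate, a fit that, like quantile normalization for the single-inhibitor media, was added after the data were seen. Neither Pou5f1 nor Otx2 passed the test in the fit with group only. Genes with few reads in a group are limited by depth, since 3 reads in a library of S/L amount to 0.329 RPM on average.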
